A study of Mus musculus with 2 samples.

Results

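The T-box transcription factors Tbx1, Tbx2, Tbx3, Tbx4, Tbx5, Tbx18 and Tbx20 were followed in single cells of the mouse heart and its surroundings. These 7 genes were taken by symbol from the 52550 gene identifiers in the deposited tables. The tissue was the posterior second heart field (SHF), mesoderm behind the heart that adds cells to it, dissected together with the heart tube from wild-type CD1 embryos at embryonic day 10.0. Both libraries belong to this 1 untreated group and each pooled about 80 embryos, processed on separate days. Expression was read by Drop-seq, which captures the polyadenylated RNA of a cell on a barcoded bead and counts each captured molecule through its unique molecular identifier (UMI). Neither library was mutant or treated, and every comparison sets cell types of these libraries against each other.

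T-box proteins share a DNA-binding domain that recognises a short core sequence, and they act beside partners such as Nkx2-5 and Gata4. Tbx5 and Tbx20 are known as activators of the cardiac program, and Tbx5 is also known in the posterior SHF, where it acts with Hedgehog signalling. Tbx18 is known in the epicardium and in the inflow of the heart. Tbx1 is known in pharyngeal mesoderm and endoderm and in the anterior SHF. Tbx2 and Tbx3 are repressors known for keeping the atrioventricular canal and the conduction system from adopting a chamber program, and Tbx4 is known in the hindlimb, the lung mesenchyme and the allantois.

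In GENCODE M21 on GRCm38 (mm10), Tbx3 lies at chr5:119670669-119684724 and Tbx5 at chr5:119832668-119885219, both on the plus strand and 148 kb apart. Tbx2, at chr11:85832551-85841948, and Tbx4, at chr11:85886422-85916097, are also neighbours on the plus strand, 44.5 kb apart. Tbx1 lies at chr16:18580979-18590671, Tbx18 at chr9:87702800-87731260 and Tbx20 at chr9:24718138-24774303, all on the minus strand. Tbx3 overlaps its antisense gene Tbx3os1 over 697 bases and Tbx18 overlaps the unnamed model D030062O11Rik over 1976 bases, in each case on the opposite strand. Whether the counting used strand is not given in the sources used here, but the partners held only 61 UMIs against 1184 of Tbx3 and 10 UMIs against 469 of Tbx18.

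RefSeq's sequences around annotated starts, on GRCm38.p6, matched 4 members, Tbx1, Tbx4, Tbx18 and Tbx20. Those of Tbx1, Tbx18 and Tbx20 are shown because the results turn on these members, and each is the 250 bases that end just before the start, read 5′ to 3′ along the gene. Capitals mark matches, on either strand, to the motifs searched, which were the T-box core AGGTGT, the GATA core AGATAA, the GLI site GACCACCCA, the TATA box TATAAA, the box of the letters CCAAT, the GC box GGGCGG and the NKX core AAGTG. The windows are chr16:18590672-18590921 for Tbx1, chr9:87731261-87731510 for Tbx18 and chr9:24774304-24774553 for Tbx20, each on the minus strand.
Tbx1: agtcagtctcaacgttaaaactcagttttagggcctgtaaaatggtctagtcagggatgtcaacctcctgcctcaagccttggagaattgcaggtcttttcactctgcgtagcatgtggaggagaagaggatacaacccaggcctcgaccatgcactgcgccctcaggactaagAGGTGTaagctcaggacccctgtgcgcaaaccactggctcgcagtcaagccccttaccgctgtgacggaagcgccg
Tbx18: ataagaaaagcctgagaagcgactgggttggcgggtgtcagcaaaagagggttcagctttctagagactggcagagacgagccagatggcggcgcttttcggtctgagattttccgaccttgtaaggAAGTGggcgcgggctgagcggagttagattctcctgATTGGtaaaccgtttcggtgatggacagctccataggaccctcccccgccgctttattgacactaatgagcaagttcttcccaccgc
Tbx20: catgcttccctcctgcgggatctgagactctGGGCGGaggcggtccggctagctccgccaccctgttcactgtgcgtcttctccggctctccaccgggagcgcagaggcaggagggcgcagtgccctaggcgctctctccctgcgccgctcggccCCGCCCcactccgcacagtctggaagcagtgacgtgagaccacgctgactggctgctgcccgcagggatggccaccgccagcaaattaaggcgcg
The Tbx1 window held 1 T-box core, which begins 76 bases before the start, and 11.8% of the 32851 windows of this length held that core. The Tbx18 window held a CCAAT box, which 33.8% of windows held, and an NKX core, which 40.7% of windows held. The Tbx20 window held 2 GC boxes, and 32.7% of windows held at least 1. The GC content was 54.4% for Tbx1, 54.0% for Tbx18 and 68.8% for Tbx20, against a median of 52.4% over all windows. These matches describe letters in a window, not bound sites. Tbx1 has a start inside the gene as well. The window before that start, chr16:18588900-18589149, held a GC box and no T-box core, with a GC content of 67.2%. Since Drop-seq reads the end of a transcript next to its poly(A) tail, the counts do not show which start was used.

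A kept cell had 400 or more genes and no more than 10% of its UMIs from mitochondrial genes. There were 4038 kept cells in replicate 1 and 4934 in replicate 2, with medians of 1364 and 1505 UMIs per cell and totals of 11682683 and 13347932 UMIs. Over the full tables the libraries shared 82 cell barcodes, and among kept cells they shared 0. A cell was given a type, named with the suffix "-like", when its UMIs of a marker list outside the T-box family were more than its depth accounts for. That placed 1938 cells (21.6%) in a type, and 298 of them lay within a factor of 10 of the limit on the tail probability. Among SHF progenitor-like cells, 34 of 65 in replicate 1 and 44 of 93 in replicate 2 lay that near the limit. Among ventricular-like cardiomyocytes 2 of 56 and 2 of 112 did. With a stricter limit the SHF progenitor-like cells numbered 31 and 49. A further 53 cells passed for more than 1 lineage and were left out. The remaining cells were shallower, with medians of 1128 and 1270.5 UMIs. Levels (CPM) are a gene's UMIs per 1000000 UMIs of the type, and the 16 types with at least 20 cells in each library were compared. Levels of different genes are not ranked against each other. The 9 cardiomyocyte markers summed to between 18807 and 41854 CPM in the cardiomyocyte-like types and to between 32.1 and 424 CPM in the other types, apart from epicardial-like cells with 1561 and 1924 CPM.

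Tbx5 was highest in mesoderm and heart muscle. The top of its order was foregut splanchnic mesenchyme-like cells, the mesoderm around the foregut, at 285 CPM in replicate 1 and 297 CPM in replicate 2 (291 ± 8.15, SD, n = 2). Atrial-like cardiomyocytes came next, at 247 and 223 CPM, then cardiomyocytes that could not be divided into atrial and ventricular, at 109.6 and 278 CPM. SHF progenitor-like cells held 138 and 142 CPM, and ventricular-like cardiomyocytes 111 and 94.4 CPM. Splanchnic and atrial-like cells did not overlap between libraries, while the undivided cardiomyocytes differed so much between libraries that they overlapped both neighbours in this order. Epicardial-like cells held 49.6 and 46.4 CPM, and limb or body wall mesenchyme-like cells 59.9 and 16.1 CPM. The libraries disagreed for this limb or body wall type, where 12 of 38 cells held a Tbx5 UMI in replicate 1 and 3 of 32 in replicate 2. In foregut endoderm-like, neural crest or glia-like and neural tube-like cells Tbx5 had 0 UMIs in both libraries.

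A Tbx5 UMI was seen in 63.2% of the 38 splanchnic-like cells of replicate 1 (exact 95% binomial interval 46.0% to 78.2%) and in 43.3% of the 30 of replicate 2 (25.5% to 62.6%). With each cell thinned to 1500 UMIs the shares were 35.9% and 34.7%. Among erythroid-like cells, blood cells that should lack the gene, the share was 0.562% and 0.685%. Their median depths were 3131.5 and 5865.5 UMIs, against 5495.5 and 2438.5 in splanchnic-like cells. The intervals cover counting error only. Thinning left out shallower cells, 5 and 8 splanchnic-like, 20 and 38 ventricular-like, 2 and 1 epicardial-like, 39 and 21 hepatoblast-like and 4 and 4 neural crest or glia-like cells in replicates 1 and 2.

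Tbx20 was highest in heart muscle. Undivided cardiomyocytes held 188 and 149.6 CPM, ventricular-like cardiomyocytes 133 and 144 CPM, and atrial-like cardiomyocytes 125 and 68.6 CPM. The undivided values came from only 12 and 14 UMIs. Undivided cells were the shallowest compared, with medians of 1195 and 1147 UMIs per cell. The 3 cardiomyocyte types stood above all other 13 types in both libraries. Ventricular-like and atrial-like cells did not overlap, but the atrial-like libraries lay far apart. The next type in the order was endocardial-like cells, the inner lining of the heart, at 41.3 and 14.6 CPM. Neuron-like cells held 16.5 and 31.3 CPM and SHF progenitor-like cells 13.4 and 23.3 CPM, and these ranges overlapped that of endocardial-like cells. A Tbx20 UMI was seen in 30.4% of ventricular-like cells of replicate 1 (exact 95% binomial interval 18.8% to 44.1%) and in 28.6% of replicate 2 (20.4% to 37.9%). After thinning the shares were 16.6% and 19.2%, and in erythroid-like cells the unthinned shares were 0% and 0.685%.

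Tbx18 was highest in epicardial-like cells, the outer cover of the heart, at 182 and 239 CPM (210.3 ± 40.3, SD, n = 2). The cardiomyocyte-like types followed, with 109.6 and 74.8 CPM in undivided (7 UMIs in each library), 51.4 and 78.7 CPM in ventricular-like and 86.0 and 17.1 CPM in atrial-like cells. Epicardial-like cells stood apart from these 3 types, which overlapped each other. The atrial-like value rested on replicate 1, where 24 UMIs fell in 10 of 53 cells, against 3 UMIs in 3 of 49 cells in replicate 2. The remaining 12 types each held at most 16.5 CPM in either library, and 5 of them held 0 UMIs in both. A Tbx18 UMI was seen in 43.8% of epicardial-like cells of replicate 1 and in 44.8% of replicate 2 (exact 95% binomial intervals 26.4% to 62.3% and 26.4% to 64.3%). After thinning, the shares were 17.2% and 26.0%. No erythroid-like cell of the 178 and 146 held a Tbx18 UMI, which allows shares of cells with a UMI of up to 1.69% and 2.05% (3 counts of the total).

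**Figure D1:**
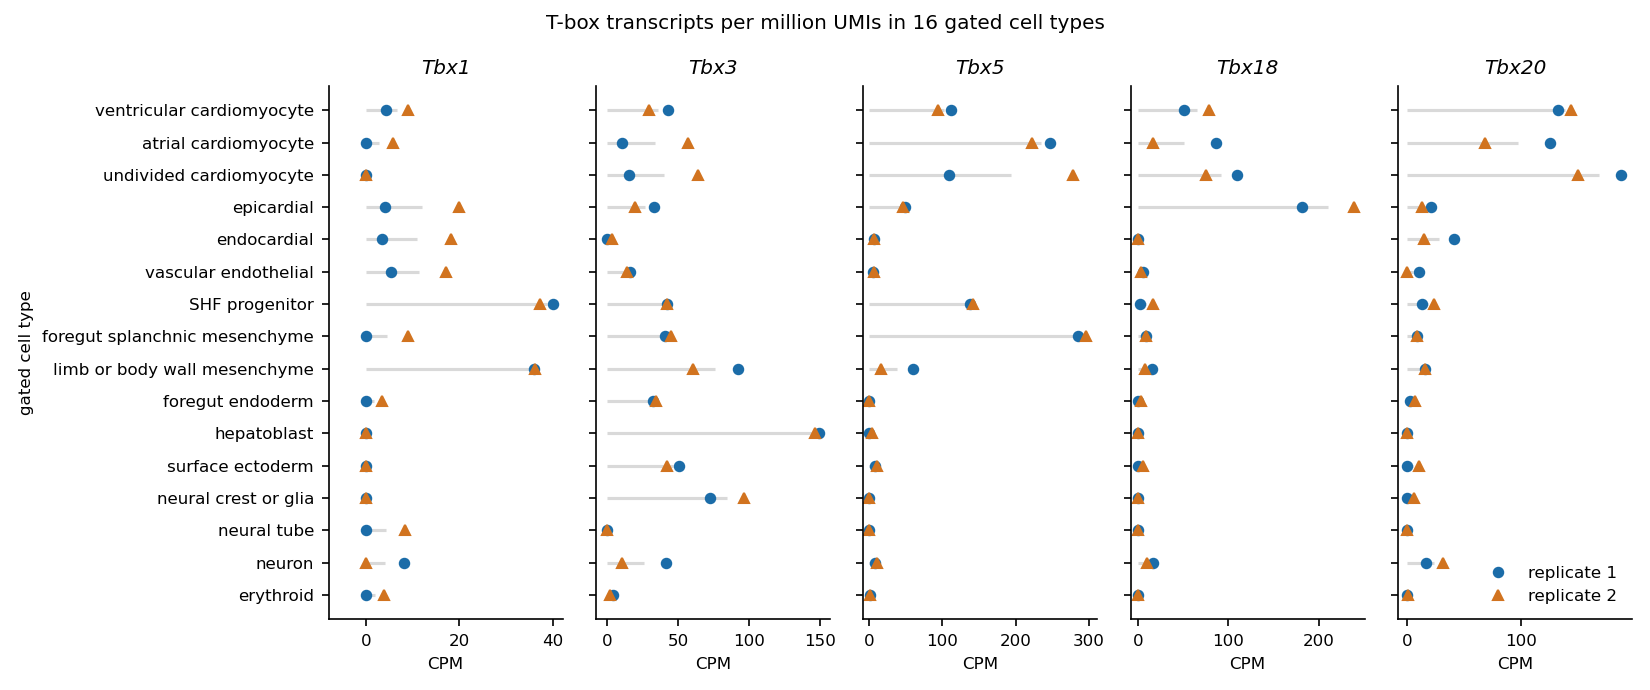
CPM (horizontal axes, linear) of 5 T-box members in the 16 gated cell types (vertical axis), with circles for replicate 1, triangles for replicate 2 and grey bars up to their mean. Tbx20 stands highest in the 3 cardiomyocyte types, Tbx18 in epicardial cells at 182 and 239 CPM, Tbx5 in splanchnic mesenchyme at 285 and 297 CPM and Tbx3 in hepatoblasts at 149.5 and 146.7 CPM.

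Tbx1 was only partly captured by the marker types, which held 17.4% of its 585 UMIs. SHF progenitor-like cells had 40.1 and 37.2 CPM and limb or body wall mesenchyme-like cells 36.0 and 36.2 CPM. In SHF progenitor-like cells of replicate 1, 14 of the 18 UMIs came from 1 cell, and without it the level was 9.43 CPM. In replicate 2 the cell with the most Tbx1 held 6 of 16 UMIs, and without it the level was 24.2 CPM. The near-equal SHF values of the libraries thus rested on a few cells. In the limb or body wall type, 9 UMIs lay in 6 cells of replicate 1 and 9 in 4 cells of replicate 2. Pharyngeal mesoderm-like cells, the type in which Tbx1 is best known, numbered only 3 and 7. They held 0 and 8 Tbx1 UMIs, with 5 of the 8 in 1 cell, so no level is given for them. Hepatoblast-like, neural crest or glia-like, surface ectoderm-like and undivided cardiomyocyte-like cells held 0 Tbx1 UMIs in both libraries.

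Tbx3 was spread over types of all germ layers and was highest outside the heart. Hepatoblast-like cells, the precursors of liver epithelium, held 149.5 and 146.7 CPM (148 ± 2.01, SD, n = 2). Neural crest or glia-like cells held 72.3 and 96.1 CPM and limb or body wall mesenchyme-like cells 91.9 and 60.3 CPM, and these overlapped. SHF progenitor-like cells held 42.3 and 41.9 CPM, splanchnic-like cells 40.7 and 45.0 CPM and foregut endoderm-like cells 32.2 and 34.6 CPM. Ventricular-like cardiomyocytes held 42.8 and 29.2 CPM and atrial-like cardiomyocytes 10.7 and 57.1 CPM, so the order of the chamber types turned between the libraries. Endocardial-like cells had 1 Tbx3 UMI in all, and neural tube-like cells had 0. A Tbx3 UMI was seen in 28.6% and 30.6% of hepatoblast-like cells and in 43.3% and 27.6% of neural crest or glia-like cells. Thinned to the same depth, the shares were 12.9% and 21.8% in the former and 12.9% and 10.3% in the latter, so the order of the mean share turned with depth. In erythroid-like cells the unthinned share was 2.25% and 1.37%.

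Tbx2 and Tbx4 were near the limit of detection. Tbx2 had 166 UMIs among all kept cells, 26.5% of them in marker types. The most in any type compared were 8 UMIs in ventricular-like cardiomyocytes (17.1 and 8.99 CPM), 6 in limb or body wall mesenchyme-like cells (12.0 and 12.1 CPM) and 5 in splanchnic-like cells (9.05 and 27.0 CPM). In Dlx ectomesenchyme-like cells, the neural crest cells of the pharyngeal arches, Tbx2 had 11 UMIs, but this type held only 8 cells in replicate 1. Tbx4 had 25 UMIs among all kept cells, and 3 of the 5 in marker types lay in splanchnic-like cells.

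Free RNA was looked for in barcodes with 10 to 200 UMIs, of which there were 117 with 8713 UMIs in replicate 1 and 333 with 55494 UMIs in replicate 2. They held 1 and 4 UMIs of Tbx1, 0 and 3 of Tbx3, 0 and 1 of Tbx5, 0 and 1 of Tbx20 and none of the other 3 members in either library. For Tbx1 this came to 115 and 72.1 CPM, from 5 UMIs in all, which is above its level in every type compared. The level of Tbx1 in erythroid-like cells was 0 and 3.78 CPM, and their levels of the other members were at most 3.77 CPM. The part of free RNA in the Tbx1 values was not tested further.

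The comparisons used edgeR's quasi-likelihood F test on UMI sums per library and type, with the library as a block and Benjamini-Hochberg adjustment over 8143 genes. Tbx3, Tbx5, Tbx18 and Tbx20 passed its filter on low counts. Tbx1, Tbx2 and Tbx4 did not, and for these the UMIs are given. Only 2 libraries stand behind each p-value, and types of a library share its embryos, so the p-values describe differences between types and not between groups of animals.

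Between SHF progenitor-like cells and the cardiomyocytes to which that field contributes, Tbx18 and Tbx20 were lower in the progenitors and Tbx5 did not differ detectably. Tbx20 stood at 13.4 and 23.3 CPM in progenitors and at 135 and 126 CPM over all cardiomyocyte-like cells. It fell by 2.93 on the log2 scale in progenitors (SE 0.42, edgeR adjusted p = 3.90e-08), against the mean of the 3 cardiomyocyte types. Tbx18 stood at 2.23 and 16.3 CPM against 74.6 and 63.1 CPM, and fell by 2.98 (SE 0.55, edgeR adjusted p = 1.95e-05). Its size varied with the library, at -1.64 from replicate 2 alone and -4.93 from replicate 1 alone. Tbx5 stood at 138 and 142 CPM against 177 and 149.99 CPM, a log2 difference of -0.39 (SE 0.24, edgeR adjusted p = 0.283). Tbx3 stood at 42.3 and 41.9 CPM against 24.3 and 40.7 CPM, a log2 difference of 0.14 (SE 0.40, edgeR adjusted p = 0.877). Of the 8143 genes tested, 1388 (17.0%) passed in this comparison, and of the 4 members 2 did. Tbx1 had 34 UMIs in progenitors and 6 in cardiomyocytes. With no filter on low counts it was higher in progenitors by 4.21 on the log2 scale (edgeR adjusted p = 4.83e-05), a value that includes the cell with 14 UMIs.

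The Tbx5 result depended on which cells were called progenitors. With clusters made without T-box genes in place of marker types, the cluster named SHF progenitor was led by Barx1 and held 34.5 and 51.4 CPM of Tbx5, and the log2 difference from cardiomyocytes was -1.92 (edgeR adjusted p = 3.94e-06). The cluster led by Cxcl13, Osr1 and Aldh1a2 carried equal numbers of raised SHF and splanchnic markers, stayed unnamed and held 209 and 160.0 CPM. Whether Tbx5 differed between progenitors and cardiomyocytes thus depended on how progenitors were defined. Barx1 is itself a marker of the splanchnic list, so the name of its cluster is uncertain. Cxcl13 and Nkx6-1, of the same list, were among the leading genes of the unnamed cluster. The 285 and 297 CPM of splanchnic-like cells therefore did not extend to the Barx1-led cluster.

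Among partner transcription factors, 11 of 12 were tested, and 6 were higher in cardiomyocytes, 0 in progenitors. Mef2c, a muscle transcription factor, stood at 385 and 376 CPM in cardiomyocytes against 40.1 and 41.9 CPM in progenitors (edgeR adjusted p = 2.45e-17). Nkx2-5 stood at 314 and 471 CPM against 55.7 and 58.2 CPM (edgeR adjusted p = 1.26e-12), Hopx at 189 and 139 CPM against 2.23 and 2.33 CPM, and Hand2 at 83.2 and 78.5 CPM against 26.7 and 11.6 CPM. The median log2 difference of the partners, progenitors over cardiomyocytes, was -1.35, against 0.07 over all genes. Of 20 genes known as T-box targets 13 were tested, with 8 higher in cardiomyocytes, 2 higher in progenitors and a median of -3.09. Of all genes tested, 730 were higher in cardiomyocytes and 658 in progenitors. The filter on low counts can pass a gene through the type where it is high. Nppb, Gja5 and Cdkn1a had 1 progenitor UMI each, and Bmp2 and the partner Hopx had 2 each. The counts and medians of both lists may lean towards cardiomyocytes through this filter, which was not tested. The atrial peptide gene Nppa had 0 UMIs in progenitors and stood at 414 and 499 CPM in cardiomyocytes, and the sinoatrial factor Shox2 stood at 4.46 and 9.31 CPM against 366 and 282 CPM. The connexin gene Gja1, at 143 and 184 CPM against 31.2 and 39.2 CPM, and the growth regulator Mycn, at 180.5 and 212 CPM against 34.7 and 61.7 CPM, were the 2 targets higher in progenitors. Of the 10 other T-box family genes only Mga, a partner of Max, was tested, and it did not pass (edgeR adjusted p = 0.0734). Mga had 1597 UMIs among all kept cells, and the next, T, Tbx6 and Tbx15, had 14, 11 and 9.

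Between the chambers, Tbx5 was higher in both libraries of atrial-like cells, though the difference missed the threshold. Atrial-like cells held 247 and 223 CPM and ventricular-like cells 111 and 94.4 CPM, without overlap, and the log2 difference was 1.14 (SE 0.31, edgeR adjusted p = 0.0613). It passed with library totals in place of TMM scaling (1.20, edgeR adjusted p = 0.0434) and with a looser marker limit (1.13, edgeR adjusted p = 0.0454), and its adjusted p reached 0.841 without the library block. Tbx20 was 0.58 lower in atrial-like cells on the log2 scale (-0.58, SE 0.39, edgeR adjusted p = 0.837), Tbx3 differed by -0.30 (SE 0.56) and Tbx18 by -0.32 (SE 0.51). Of the 4 members 0 passed in this comparison, 1 had an unadjusted p under 0.05, and DESeq2 also called 0. Of all genes 45 (0.553%) passed.

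The split of the chambers rested mainly on Myl3, which gave 79.2% and 73.3% of the ventricular marker UMIs in cardiomyocytes, and 80 of the 357 cardiomyocytes were within 1 UMI of the divide. Myl2, the classical ventricular gene, had a UMI in 18.5% of ventricular-like and 0% of atrial-like cells. With Myl3 taken out of the split, a choice made after seeing the data, Tbx5 kept its direction at 204 and 191 CPM against 106 and 85.4 CPM. Tbx18 then stood at 56.8 and 9.25 CPM in atrial-like cells and at 141 and 130.0 CPM in ventricular-like cells, without overlap (log2 difference -1.91, edgeR adjusted p = 0.0377). Ventricular-like cells had the higher mean of Tbx18 in both splits, but the libraries overlapped with Myl3 in the split and not without it. The Tbx18 UMIs of each class were the same in both splits, 24 and 3 in atrial-like and 12 and 35 in ventricular-like cells, so only the totals of the classes moved. Of the partners, Hopx alone passed, and it was higher in ventricular-like cells, at 381 and 187 CPM against 43.0 and 62.9 CPM (edgeR adjusted p = 1.08e-04). Of the targets, Id2 (1258 and 1029 CPM against 415 and 672 CPM), Wnt2 (419 and 434 CPM against 154 and 193 CPM) and Shox2 (494 and 377 CPM against 205 and 200.1 CPM) passed and were higher in atrial-like cells.

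Epicardial-like cells differed from SHF progenitor-like cells in Tbx18 and Tbx5, in opposite directions. Tbx18 stood at 182 and 239 CPM against 2.23 and 16.3 CPM, 22.4-fold higher in epicardial-like cells (log2 4.48, SE 0.55, edgeR adjusted p = 1.78e-09), and the log2 difference was 6.10 from replicate 1 alone, where progenitors held 1 UMI, and 3.89 from replicate 2 alone. Tbx5 stood at 49.6 and 46.4 CPM against 138 and 142 CPM, 2.78-fold lower in epicardial-like cells (log2 -1.48, SE 0.39, edgeR adjusted p = 0.00995). This Tbx5 difference kept its direction but did not pass with DESeq2 (log2 -1.46, adjusted p = 0.105) or without the library block (log2 -1.48, edgeR adjusted p = 0.0810), and its log2 value was 0.05 with clusters in place of marker types. Tbx20, at 20.7 and 13.3 CPM against 13.4 and 23.3 CPM, and Tbx3, at 33.0 and 19.9 CPM against 42.3 and 41.9 CPM, did not pass. With clusters, both of these passed, Tbx20 higher by 2.08 and Tbx3 at -2.74 in the epicardial cluster on the log2 scale. Of all genes 388 (4.76%) passed, and of the 4 members 2 did. Cardiomyocyte markers summed to 1561 and 1924 CPM in epicardial-like and to 256 and 424 CPM in progenitor-like cells, and the part of this in the T-box values was not tested.

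Of the 11 partners tested here, Hand2 (182 and 92.9 CPM against 26.7 and 11.6 CPM) and Hand1 (37.2 and 46.4 CPM against 0 and 9.31 CPM) were higher in epicardial-like cells. Nkx2-5 had 0 UMIs in epicardial-like cells. Of the 13 targets tested, Bmp2 and Gas1 were higher in epicardial-like cells and Wnt2 and Mycn were higher in progenitors. Wnt2, which encodes a secreted signal, stood at 49.6 and 33.2 CPM against 160.4 and 137 CPM, and Mycn at 49.6 and 53.1 CPM against 180.5 and 212 CPM.

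Foregut splanchnic mesenchyme-like cells held the highest Tbx5 and were set against SHF progenitor-like cells, their neighbours in the same mesoderm. Tbx5 stood at 285 and 297 CPM against 138 and 142 CPM, without overlap, and the log2 difference was 1.05 in the fit and 1.05 in each library alone (SE 0.29, edgeR adjusted p = 0.261). SHF markers summed to 829 and 1034 CPM in splanchnic-like and 1450.4 and 1694.5 CPM in progenitor-like cells, so the types share much of that list. Tbx3 stood at 40.7 and 45.0 CPM against 42.3 and 41.9 CPM (log2 0.01, SE 0.52). Tbx18 and Tbx20 had 3 UMIs each in splanchnic-like cells and did not pass. Tbx1 had 1 UMI there and 34 in progenitors. Of the 4 members 0 passed in this comparison, 1 had an unadjusted p under 0.05, and DESeq2 also called 0. Of all genes only 11 (0.135%) passed. Nkx2-5, with 0 UMIs in splanchnic-like cells, and Id2, at 462 and 449.6 CPM against 898 and 1033 CPM, were the partner and the target that passed, both higher in progenitors.

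Endocardial-like and vascular endothelial-like cells carried few T-box UMIs. Tbx20 had 16 UMIs in endocardial-like cells (41.3 and 14.6 CPM) and 2 in vascular endothelial-like cells (10.7 and 0 CPM), a ratio of 6.77 with an exact 95% interval for counting error of 1.59 to 60.7. Tbx3 went the other way, with 1 UMI in endocardial-like and 7 in vascular endothelial-like cells, a ratio of 0.121 (0.00268 to 0.941). Neither gene passed over all genes (edgeR adjusted p = 0.571 for Tbx20 and 0.879 for Tbx3). Of the 4 members 0 passed, 2 had an unadjusted p under 0.05, and DESeq2 also called 0. Of all genes 27 (0.332%) passed. Endocardial-like cells were chosen by at least 1 UMI of Npr3, Nfatc1, Cytl1 or Adgrg6, and endothelial cells with none were called vascular. The endocardial-like cells were deeper, with medians of 5763 and 3811 UMIs against 1701 and 2112.5. Endocardial cells in which none of these genes was captured would count as vascular, and their share was not tested. The partner Hand2 (89.4 and 43.9 CPM against 0 and 13.8 CPM) and the target Gja5, a connexin gene (17.2 and 179 CPM against 0 and 6.89 CPM), were higher in endocardial-like cells, and most Gja5 came from replicate 2. Hopx was higher in vascular endothelial-like cells, at 80.1 and 137.9 CPM against 3.44 and 14.6 CPM.

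**Figure D2:**
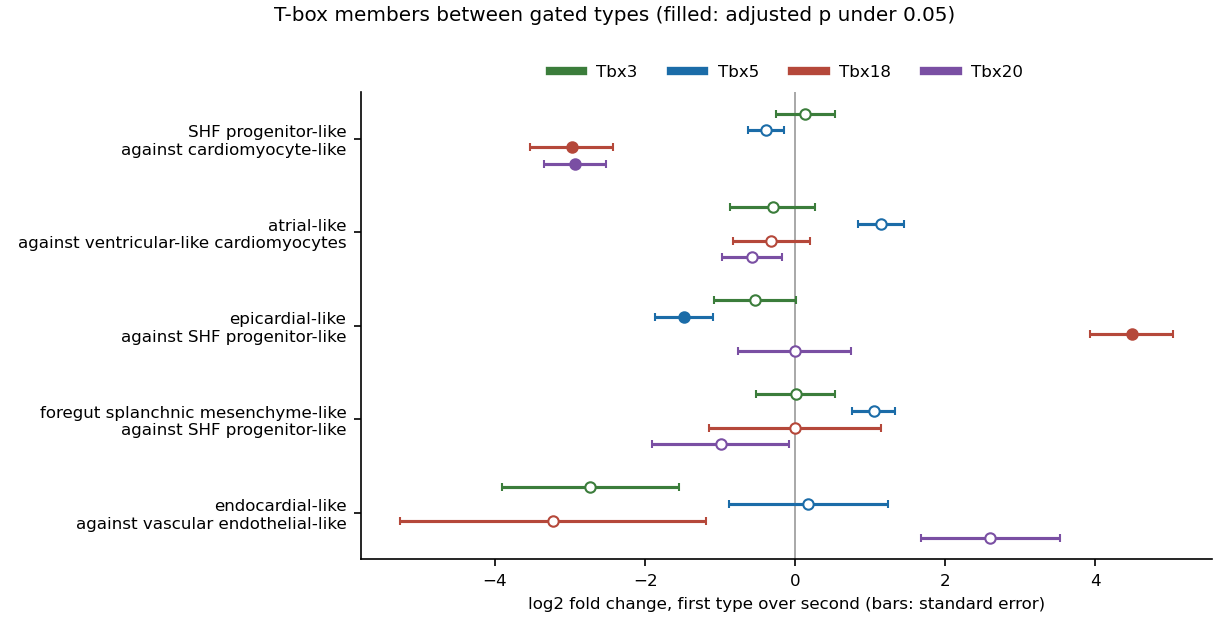
Log2 fold change of the 4 tested T-box members (horizontal axis, with bars of 1 standard error) in 5 comparisons of cell types (vertical axis), positive where the first type is higher, with filled symbols for an adjusted p under 0.05. The filled symbols are Tbx18 and Tbx20 in progenitors against cardiomyocytes and Tbx18 and Tbx5 in epicardial cells against progenitors.

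The members below the count filter had few UMIs on either side of these comparisons. Tbx1 had 1 UMI in atrial-like and 5 in ventricular-like cells, 4 in epicardial-like cells against 34 in progenitors, and 6 in both endocardial-like and vascular endothelial-like cells. Tbx2 had 4 UMIs in progenitors and 9 in cardiomyocytes, 1 in atrial-like and 8 in ventricular-like cells, 1 in epicardial-like and 5 in splanchnic-like cells, and 0 in both endothelial types. Tbx4 had 1 UMI in progenitors, 1 in cardiomyocytes and 3 in splanchnic-like cells, and 0 in epicardial-like and both endothelial types. In the endothelial comparison Tbx5 had 4 UMIs against 3, and Tbx18 had 0 against 2. Tbx5 and Tbx18 did not pass. In the fit with no filter on low counts, Tbx1 in progenitors against cardiomyocytes passed, and the other differences of Tbx1, Tbx2 and Tbx4 had edgeR adjusted p-values of at least 0.373.

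A comparison of pharyngeal mesoderm-like with SHF progenitor-like cells, and of Dlx ectomesenchyme-like with pharyngeal mesoderm-like cells, could not be fitted, since pharyngeal mesoderm-like cells numbered 3 and 7. Where Tbx1, Tbx2 and Tbx3 lay among the cells without a marker type was therefore described from 22 clusters of all kept cells, made without T-box genes and called here by their leading genes. Tbx1 was highest in the cluster led by Grem1, Rdh10 and Pcp4, at 138 and 160 CPM, with a UMI in 25.9% and 22.9% of its 116 and 175 cells. The cluster led by Foxi2, Galnt3 and Pyy, which also carried Ripply3, Fgf8 and Nkx2-6, followed at 88.7 and 64.6 CPM, and these ranges did not overlap. In both libraries this second value lay below that of the free RNA barcodes, 115 and 72.1 CPM from 1 and 4 UMIs. The part of free RNA in it was not tested. This Foxi2 cluster held 183 cells in replicate 1 and 492 in replicate 2, and Tbx1 over all kept cells was 16.7 and 29.2 CPM. In the Pax3-led cluster, named paraxial mesoderm, the libraries lay at 19.02 and 73.9 CPM.

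Tbx3 was highest in the cluster led by Tac2, Igfbp2 and Slc2a3, with Hand1 and Krt8 among its leading genes, at 190.1 and 179.7 CPM, from 33 and 73 cells. Hepatoblast cluster cells, led by Afp, held 160.4 and 157 CPM. In the Tfap2b-led cluster with Dlx2 and Dlx5, Tbx2 stood at 19.6 and 13.3 CPM and Tbx3 at 66.5 and 60.7 CPM. Both repressors were thus seen in this cluster, though a Tbx2 UMI lay in only 5.04% and 4.87% of its cells. In the hepatoblast cluster Tbx2 had 0 UMIs, in 99 and 76 cells. Hepatoblast-like cells of the marker type also had 0, where 3 counts would be 8.79 and 11.6 CPM, so a low level could be missed. Of the 25 Tbx4 UMIs, 11 lay in the cluster led by Cxcl13, Osr1 and Aldh1a2, the cluster with the highest mean of Tbx5 over the libraries. Tbx20 was highest in the Actc1-led cardiomyocyte cluster, at 128 and 115 CPM, and next in the cluster led by Postn, Lum and Plagl1, at 75.4 and 55.9 CPM.

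**Figure D3:**
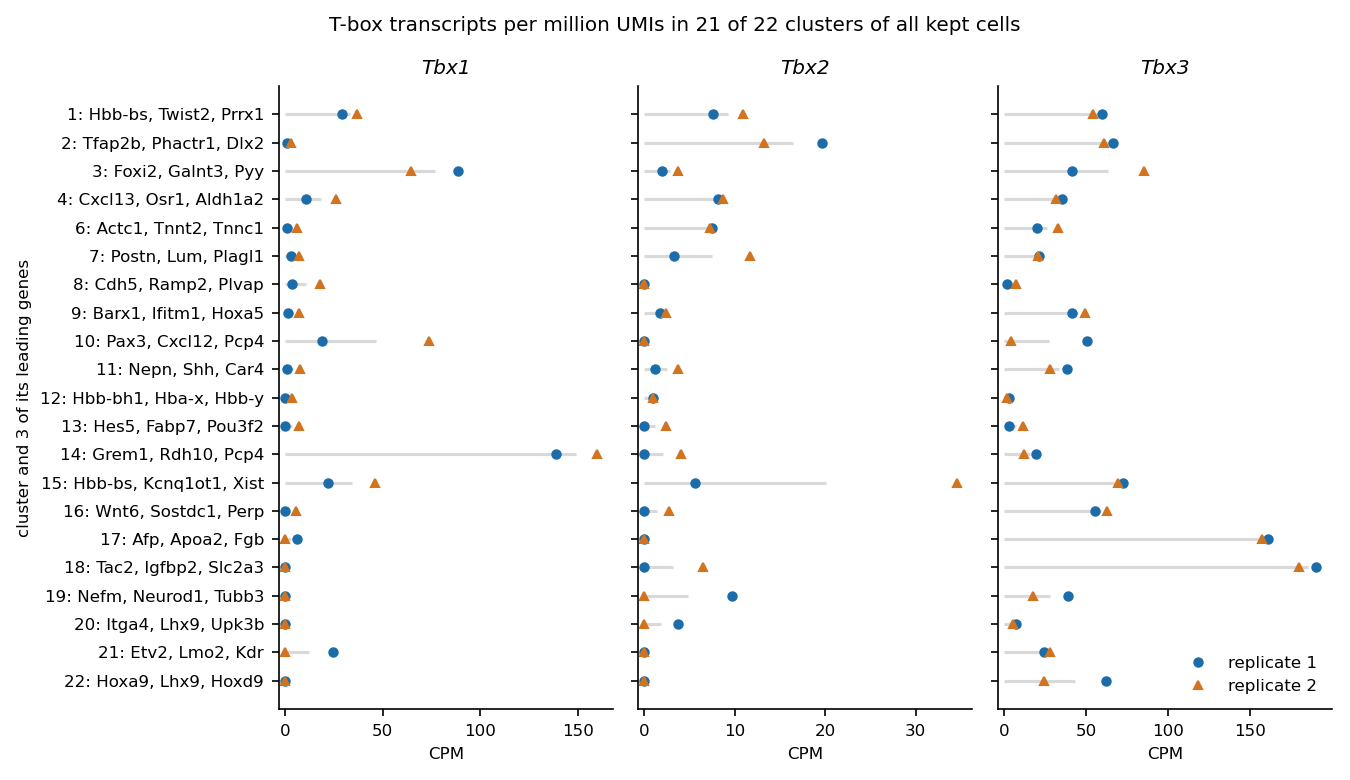
CPM (horizontal axes, linear) of Tbx1, Tbx2 and Tbx3 in 21 of 22 clusters of all kept cells (vertical axis, each with its number and 3 leading genes), with circles for replicate 1, triangles for replicate 2 and grey bars up to their mean. Tbx1 peaks in the Grem1-led cluster, Tbx3 in the Tac2-led and Afp-led clusters, and Tbx2 stays at most at 34.5 CPM.

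Co-detection of pairs in single cells was set against the number expected if the 2 genes were independent within each library and depth quartile. Tbx5 and Tbx20 shared 84 cells (52 and 32) against 29.6 expected, a ratio of 2.84. Tbx18 and Tbx20 shared 31 cells against 12.9, Tbx2 and Tbx3 shared 45 against 19.9, and Tbx5 and Tbx18 shared 50 against 27.5. In contrast Tbx1 and Tbx20 shared 5 cells against 17.9, Tbx3 and Tbx18 shared 16 against 34.4, and Tbx1 and Tbx5 shared 21 against 36.7. Of the 21 pairs, 14 were above the expected number and 7 below, and 15 were above it without the cells of the highest 5% of doublet scores. Without those cells Tbx1 and Tbx20 shared 2 cells. Depth quartiles alone do not hold the cell type fixed. Within marker type and depth quartile 9 of the 21 pairs were above the expected number. Within cluster and depth quartile 11 were, and within cardiomyocytes and depth quartile 8. All these counts include sparse pairs. In cardiomyocytes only 1 cell held a Tbx4 UMI, and Tbx4 had 0 shared cells expected with Tbx1 and with Tbx2. The part of sparse pairs in the counts was not tested. These counts are descriptions of the cells of 2 libraries, with no test.

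The expected number was also taken within each cluster and depth quartile. It then rose to 67.1 for Tbx5 and Tbx20 and to 53.5 for Tbx5 and Tbx18. For Tbx18 and Tbx20 it rose to 40.8, above the 31 cells seen. It fell to 8.92 for Tbx1 and Tbx20, to 31.3 for Tbx1 and Tbx5 and to 27.3 for Tbx3 and Tbx18, still above the cells seen for these pairs. Within marker type and depth quartile, Tbx5 and Tbx20 shared 60 cells against 49.3 expected. Tbx18 and Tbx20 shared 16 against 22.7 there, and Tbx5 and Tbx18 shared 24 against 29.6. Within the 357 cardiomyocytes, Tbx5 and Tbx20 shared 47 cells against 39.8 expected, but Tbx18 shared fewer cells with either than expected, 9 against 15.5 with Tbx20 and 12 against 18.4 with Tbx5. In replicate 1 alone the Tbx18 and Tbx20 counts were 3 against 9.36, and in replicate 2 they were 6 against 6.12, so this deficit lay in replicate 1. For Tbx5 and Tbx18 they were 6 against 11.7 and 6 against 6.69. Tbx2 and Tbx3 kept an excess within clusters, at 45 cells against 29.5. Depth still varied within each quartile, which can raise the shared cells of any pair. Its part in the excesses was not tested.

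**Figure D4:**
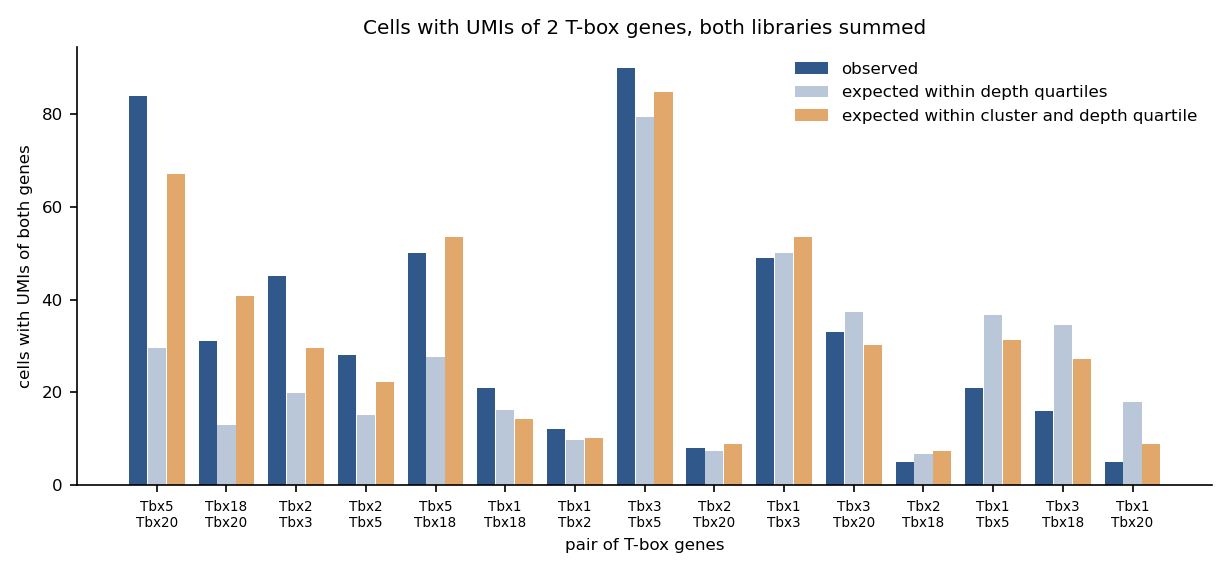
Number of kept cells with UMIs of both genes of a pair (vertical axis, linear, both libraries summed) for the 15 pairs without Tbx4 (horizontal axis, ordered by the ratio of observed to expected within depth quartiles). Dark bars are observed cells, light bars the number expected within depth quartiles and orange bars that within cluster and depth quartile; Tbx5 with Tbx20 has 84 observed cells against 29.6 and 67.1.

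For each member with enough UMIs, the genes whose levels over the 16 types were most like it were listed, by the lower of the 2 library correlations (Pearson, log2 of CPM plus 10, 9007 genes). These r values are descriptions over 16 types that share 2 libraries. Tbx5 was most like Wnt2 (0.868 and 0.949), which encodes a signal of the posterior SHF, and Runx1t1 (0.848 and 0.868). Tbx18 was most like Gucy1a3 (0.90 and 0.868), Mab21l2 (0.877 and 0.865) and Tmem108 (0.837 and 0.868). Tbx20 was most like the calcium sensor gene Vsnl1 (0.886 and 0.891), Ankrd1 (0.938 and 0.875) and Unc45b (0.911 and 0.874), the last 2 known in muscle. Tbx3 was most like Ldhb (0.726 and 0.788), Dusp9 (0.706 and 0.774) and Dgat2 (0.701 and 0.757). For Tbx1 the closest genes, P3h3, Col26a1 and Col3a1, reached only 0.608, 0.6001 and 0.570 in the lower library.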

How the data were processed

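Per the labels' protocols, 2 Drop-seq libraries were made from dissected tissue of wild-type embryos. The deposited values are UMI counts, whole numbers for each gene in each cell, and nothing in the values shows that the authors scaled them. The submitters' processing notes name mm10 and Scanpy. Not given in the sources used here are the aligner, the counting tool, its strand setting and the choice of barcodes.

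Cells under 400 genes or over 10% mitochondrial UMIs were dropped. A cell took a type where the Poisson tail probability of its marker sum, given its depth, was under 0.001, with at least 2 UMIs of at least 2 markers. Cells passing for more than 1 lineage were left out. This served as the doublet filter, since Scrublet's automatic calls were 0 and 1 cells. Cardiomyocytes were divided by their larger sum of atrial or ventricular markers, and endothelial cells with an endocardial marker UMI were called endocardial. UMI sums of 16 types by 2 libraries (15 residual degrees of freedom) were tested with edgeR 4.0.16 (quasi-likelihood F test, two-sided, TMM, filterByExpr, library as block, Benjamini-Hochberg adjustment), without the marker genes. The cardiomyocyte CPM pool the UMIs of all cardiomyocyte-like cells. The log2 differences instead set the mean of the 3 types, each with equal weight, so they need not match the ratio of the CPM. The labels say that the libraries were processed on different days, and deviations of the libraries correlated between types by 0.192 to 0.662 over 1599 genes, so the library is a block. Alternatives included DESeq2 1.42.0, other filters and scalings, and Leiden clusters (2000 variable genes, 30 components, 20 neighbours, resolution 1). The test was tried on simulated data for the splanchnic comparison, where it missed most 2-fold changes. The simulated counts had a larger spread than the fit estimated, so that rate may not hold for these data. A difference that did not pass, with 2 libraries, is not a sign of equal levels. The authors' labels call the libraries biological replicates.

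The members, lists and markers were chosen with earlier results of these data known. The limits of the marker types, the 1500 UMIs of thinning and the free RNA range were set with the files at hand. For the limits, 5 settings were looked at, with T-box values on display, and the setting written first was kept. All 7 members are named in each comparison, with up to 4 genes of smallest adjusted p from each list. The Tac2-led and other clusters were singled out after their values were seen. A few results, with those of 1 of the 22 clusters, are not reported here.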

Additional observations from a re-analysis of the deposited data

How the results depend on the processing

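The number of members called was the same in most settings. In atrial-like against ventricular-like cells 0 members passed, but 1 passed with library totals (Tbx5), 1 with the looser marker limit (Tbx5) and 1 with the split without Myl3 (Tbx18), the last 2 settings chosen after seeing the data. In epicardial-like against SHF progenitor-like cells 2 passed, but 1 with DESeq2 and 1 with no replicate block, Tbx18 in both. With clusters, Tbx18, Tbx20 and Tbx3 passed there and Tbx5 did not, and Tbx5 newly passed in progenitors against cardiomyocytes (-1.92). The progenitors of the cluster setting were the Barx1-led cluster, which differs from the progenitor-like type. Among the members' log2 differences under the alternatives, 199 stayed on their side of the threshold with their direction or near their value, 5 newly passed, 2 no longer passed, 14 reversed and 17 moved. With 1 library left out, a turn of direction counted as reversed only for a member that was called. In CPM, the order of the chambers turned between the libraries for Tbx3 and for Tbx18. Those turns are not among the 14. The values counted as reversed were all of members not called, apart from Tbx5 in epicardial-like against SHF progenitor-like cells (0.051 with clusters). They were Tbx3 in progenitors against cardiomyocytes (-0.25, stricter limit), Tbx18 between chambers (0.11, looser limit), and Tbx20 in epicardial-like cells against progenitors (2.08 with clusters, 0.45 with the looser limit, 0.0057 with DESeq2). For splanchnic-like cells against progenitors they were Tbx3 (-0.0061 without the mitochondrial filter, -0.097 with no filter on low counts, -0.22 with the looser limit) and Tbx18 (0.030 with at least 800 genes per cell and 0.032 with DESeq2). For endocardial-like against vascular endothelial-like cells it was Tbx5 (-0.29 stricter limit, -1.16 clusters, -0.43 looser limit). The causes were not tested.

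Without the replicate block, the genes called fell from 1388 to 781 in progenitors against cardiomyocytes, from 388 to 164 in epicardial-like cells against progenitors, from 45 to 0 between chambers, from 11 to 0 in splanchnic-like cells and from 27 to 6 in endocardial-like cells, and it changed no member's call except Tbx5 in epicardial-like cells. DESeq2 called 923, 207, 7, 2 and 3 genes in the same order. With clusters, 1015 genes passed in epicardial-like cells against progenitors, and the splanchnic comparison could not be made, since no cluster took that name. With 1 library left out there is a value but no test. After thinning, the type with the highest share of cells was the same for 5 of 7 members, and Tbx3 and Tbx20 changed. With 166 and 25 UMIs among all kept cells, no difference of Tbx2 or Tbx4 was detectable at this depth. Tbx1 had 585, of which 17.4% lay in marker types.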
